A study of Homo sapiens with 7 samples.

Results

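The mRNAs described here encode 8 subunits or partners of the CCR4-NOT complex other than the deadenylases silenced in the study, namely CNOT1, CNOT2, CNOT3, CNOT4, CNOT8, CNOT9, CNOT10 and CNOT11. They were found by gene symbol among the probes of a human microarray, which gave 11 probes of 42405 and 8 of the 19063 genes that could be named. CNOT4 had 4 probes and every other gene had 1. All 11 probes were above background on every array and none was saturated, so no member was lost to a filter on dim probes.

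CCR4-NOT is the main cytoplasmic complex of deadenylation, the removal of the poly(A) tail that precedes the decay of an mRNA. CNOT1 is the scaffold on which the other subunits assemble. Its amino-terminal part holds CNOT10 and CNOT11, its middle part holds the deadenylases and CNOT9, and its carboxy-terminal part holds CNOT2 and CNOT3. The catalytic subunits come in pairs of paralogs. CNOT7 and CNOT8 are nucleases of the DEDD family that compete for the same place on CNOT1, and CNOT6 or CNOT6L, nucleases of the EEP family, join the complex through them.

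The cells were NCI-H520, an established line from a squamous cell carcinoma of the human lung. There were 7 groups with 1 array in each: cells transfected with the empty-vector plasmid, with the non-target-vector plasmid, or with a plasmid coding for an anti-PARN, anti-CNOT6, anti-CNOT6L, anti-CNOT7 or anti-NOC shRNA. Every culture received 6 µg of its plasmid, then 6 µg/mL puromycin after 12 h, and was harvested at 72 h, so transfection and selection are shared by all groups, controls included. Each gene was targeted with 1 shRNA, and the labels list the same target transcript for the CNOT6L and NOC shRNAs, which leaves the identity of the former uncertain. Since no group had a second array, none of the differences upon a single silencing has a replicate check. The only measure of spread is the difference between the control arrays, which mixes culture and array with the different control plasmids. In RNA of whole cultures, fewer cells carrying a transcript and less transcript per cell cannot be told apart.

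Levels are given as log2 signal relative to the 75th percentile of the array, which is set to 0. They can be compared between arrays for 1 probe, not between probes. On this scale the targeted mRNAs stood at 45.7% of the control mean for PARN, 89.5% for CNOT6, 63.0% and 57.1% for the 2 CNOT6L probes, 54.5% and 50.7% for the 2 CNOT7 probes, and 74.8% for NOC (gene symbol NOCT). The CNOT6 and NOC mRNAs were thus lowered the least, and the NOC probe was only 0.21 below the non-target array, less than the 0.41 between the control arrays. That probe was dim, at -4.94 to -4.32 on 1 spot, and stood at 78.6% of the control mean with the CNOT7 shRNA. Below, silencing names the shRNA that a culture received, and for NOC and CNOT6 a clear loss of the target was not shown. All arrays lay on 1 slide. Its row 1 held both controls and the PARN and CNOT6 shRNA arrays, and its row 2 held the CNOT6L, CNOT7 and NOC shRNA arrays, so in row 2 the slide row and the silencing cannot be told apart against controls. The image of the NOC shRNA array was extracted on a different day from all the others, so for it day and silencing cannot be told apart. The signal at the 75th percentile was lowest with the CNOT6 shRNA (1360) and highest with the CNOT7 shRNA (3939). Of 7 squamous markers, SOX2, PKP1 and KRT6A were above background on all arrays, whereas TP63 was so on 2, KRT5 on 4, KRT14 on 1 and DSG3 on none. Of 4 markers of lung adenocarcinoma or alveolar cells, NKX2-1, NAPSA and SFTPC were above background on all arrays and SFTPB on 6. The epithelial markers EPCAM and CDH1 were above background throughout, and so were all 9 probes taken for fibroblasts, leukocytes and endothelium.

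The regions in front of the gene starts are shown for the 3 members on which the results turn. These are CNOT8 (higher with the CNOT6L and CNOT7 shRNAs), CNOT3 (lower with the PARN, CNOT6 and CNOT7 shRNAs) and CNOT10 (the steadiest). Each stretch is the 250 bases before the most upstream start listed by RefSeq for build GRCh38.p14, on the plus strand, and capitals mark the letters GGGCG on either strand. These are the first 5 letters of GGGCGG, the GC box bound by SP1-type factors. The positions are chr5:154857999-154858248 for CNOT8, chr19:54137512-54137761 for CNOT3 and chr3:32695291-32695540 for CNOT10.
CNOT8: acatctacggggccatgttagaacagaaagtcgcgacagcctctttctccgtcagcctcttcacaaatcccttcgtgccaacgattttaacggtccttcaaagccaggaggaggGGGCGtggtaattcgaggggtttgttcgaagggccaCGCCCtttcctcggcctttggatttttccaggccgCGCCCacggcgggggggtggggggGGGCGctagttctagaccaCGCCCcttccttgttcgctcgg
CNOT3: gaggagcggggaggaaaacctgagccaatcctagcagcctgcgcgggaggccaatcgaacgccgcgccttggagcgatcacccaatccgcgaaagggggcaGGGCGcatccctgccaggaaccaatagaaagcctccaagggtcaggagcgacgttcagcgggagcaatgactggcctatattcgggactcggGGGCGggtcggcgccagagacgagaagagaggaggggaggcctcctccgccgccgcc
CNOT10: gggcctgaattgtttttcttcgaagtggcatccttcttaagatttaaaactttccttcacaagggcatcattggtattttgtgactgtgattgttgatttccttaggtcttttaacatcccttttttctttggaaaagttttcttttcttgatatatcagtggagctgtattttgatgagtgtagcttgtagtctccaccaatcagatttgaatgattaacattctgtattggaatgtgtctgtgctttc
The CNOT8 stretch held 5 copies of GGGCG and the CNOT3 stretch 2, while the CNOT10 stretch held 0 and had 1 CpG against 20 for CNOT8. Of the 7 members with such a region in the table, CNOT1 being absent from it, 6 held at least 1 copy, and 54.8% of all 35116 regions did. The full GGGCGG was in 5 of the 7, CNOT3 included and the printed stretches of CNOT8 and CNOT10 not, and in 42.6% of all regions. These counts describe the letters and were not set against the expression values.

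No member moved 2-fold against both controls upon any of the 5 silencings. Over all probes this rule, which requires the same direction against each control, was met by 0.347% (higher) and 0.526% (lower) upon PARN silencing, 0.449% and 0.3% upon CNOT6 silencing, 0.308% and 0.838% with the CNOT6L shRNA, 0.444% and 1.08% with the CNOT7 shRNA, and 0.57% and 1.42% with the NOC shRNA. With shares this low, 0 of 8 says little about the members. A finer rule asked whether a gene lay outside both controls by more than the controls differed from each other. It was met in 9 of the 40 combinations of gene and silencing, or 22.5%, against 28.3% over all probes. Upon PARN silencing 0 members were higher and 1 lower by this rule (all probes 8.07% and 11.3%), upon CNOT6 silencing 0 and 1 (19% and 10.6%), with the CNOT6L shRNA 2 and 1 (14.7% and 15.8%), with the CNOT7 shRNA 2 and 1 (12.9% and 17.8%), and with the NOC shRNA 0 and 1 (13.9% and 17.4%). That share is below the background, and the cases are given gene by gene below. The rule is easier to meet where the controls lie closer together. Among the genes that met it, the controls differed by 0.15 for CNOT3, 0.15 for CNOT8, 0.10 for CNOT11 and 0.21 for CNOT1. Each value was below the median of 0.29 over probes above background on all arrays, as for every member but CNOT4.

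**Figure D1:**
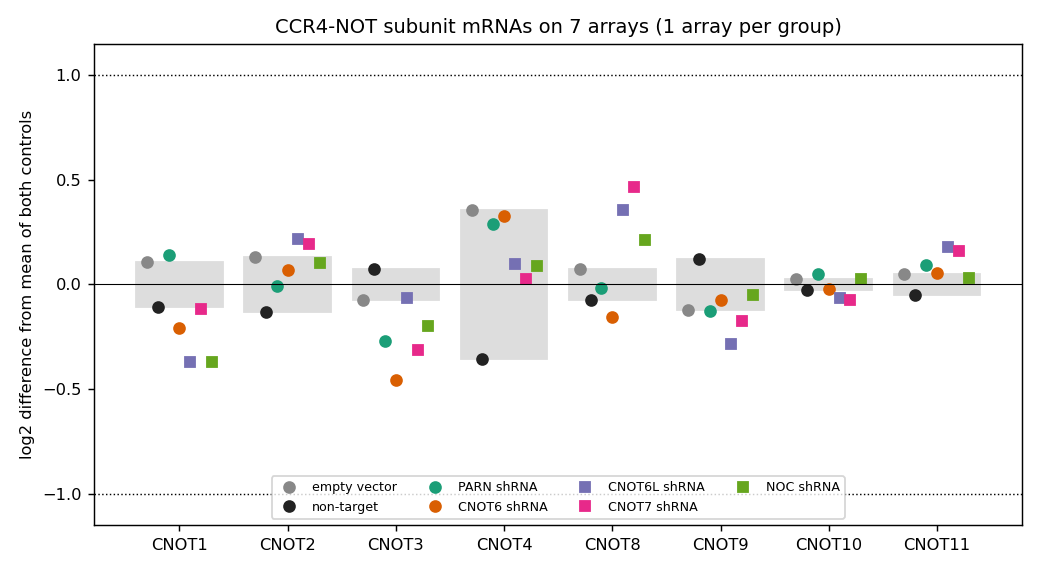
Log2 difference of each subunit mRNA from the mean of both controls (vertical axis) for 8 genes (horizontal axis), with 1 point per array; circles are slide row 1, squares are slide row 2, grey boxes span the control arrays and dotted lines mark a 2-fold change. All points lie inside the 2-fold lines, and CNOT8 and CNOT3 have the points farthest from their boxes.

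The question here was whether the mRNA of CNOT8, the paralog of CNOT7, differed when CNOT7 was silenced. Against controls the answer cannot be told apart from slide row, since the only CNOT7 shRNA array lay in row 2, without a control. CNOT8 was measured on 10 spots of each array. Its level was 1.47 in the empty-vector, 1.32 in the non-target, 1.38 in the PARN shRNA, 1.24 in the CNOT6 shRNA, 1.75 in the CNOT6L shRNA, 1.86 in the CNOT7 shRNA and 1.61 in the NOC shRNA sample. The 3 arrays of slide row 2 were thus all above the 4 arrays of row 1, and the CNOT7 shRNA array was the highest. The SD between spots was 0.04 to 0.07 on every array, which is error within an array and not between cultures. In the order of levels the smallest step, 0.059 between the non-target and PARN shRNA arrays, had an SE of 0.027 from the spots. The control arrays were 0.15 apart, and every step between neighbours in this order, the 0.14 between the empty-vector and NOC shRNA arrays included, was smaller than that.

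Upon CNOT7 silencing CNOT8 was 0.39 higher than in the empty-vector and 0.54 higher than in the non-target sample, or 138% of the control mean, while CNOT7 itself fell by 0.83 and 0.92 on its first probe and by 1.02 and 0.94 on its second. The CNOT8 difference was outside the control range. It was not confined to the CNOT7 shRNA. With the CNOT6L shRNA CNOT8 was 0.28 and 0.43 above the controls (128% of their mean), again outside the range. With the NOC shRNA it was 0.14 and 0.29 above (116%), so that the smaller value fell just short of the control difference of 0.15. With the series table, and with the 75th percentile taken over probes, CNOT8 was outside the control range on that array too. Against its row mates, the mean of the CNOT6L and NOC shRNA arrays, CNOT8 on the CNOT7 shRNA array was 0.18 higher, whereas CNOT7 was 1.10 lower on its first probe. Within row 1, where controls are present, CNOT8 was 0.09 below and 0.06 above the controls upon PARN silencing, and 0.23 and 0.08 below them upon CNOT6 silencing.

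**Figure D2:**
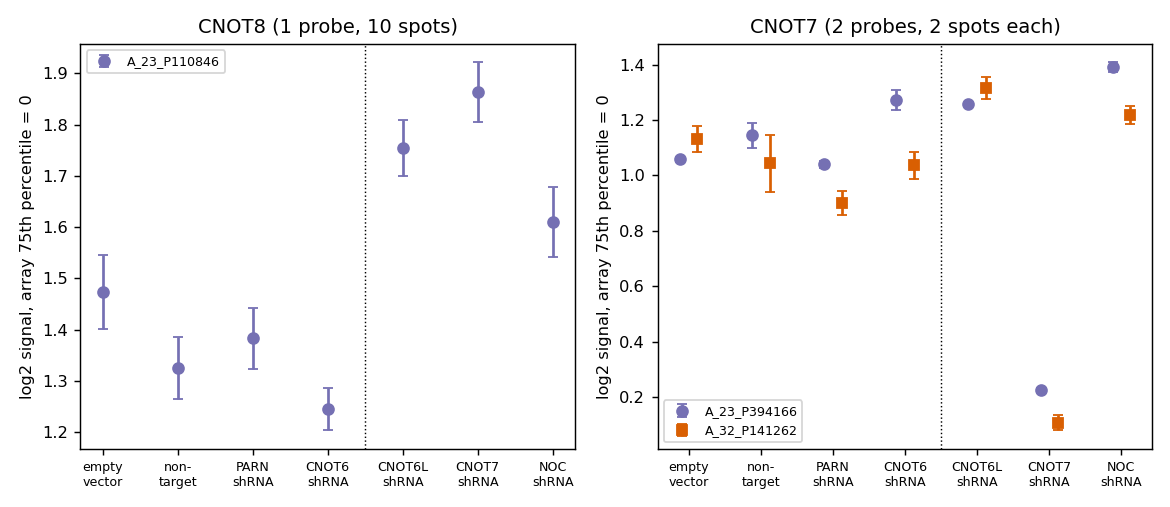
Log2 signal relative to the 75th percentile of the array (vertical axis, different range in each panel) for CNOT8 (left, mean of up to 10 spots) and the 2 probes of CNOT7 (right, 2 spots each) on the 7 arrays (horizontal axis); bars are the SD between spots and the dotted line separates slide rows 1 and 2. CNOT7 is low on the CNOT7 shRNA array alone, whereas CNOT8 is higher on all 3 arrays of row 2, at 1.61 to 1.86 against 1.24 to 1.47.

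The separation of the slide rows shown by CNOT8 was common on these arrays: row 2 lay wholly above row 1 for 9.84% of the 33742 probes above background throughout, and wholly below for 16.2%. CNOT8 was the only member of the 8 with such a separation in either direction. Its mean in row 2 exceeded that in row 1 by 0.39, or 1.31-fold, and 91.2% of probes had a lower value of this difference, whose median over all probes was -0.08. The brightness of the arrays moved in the same way, since the CNOT6 shRNA array had both the lowest CNOT8 level and the lowest 75th percentile, and the CNOT7 shRNA array the highest of each. Of all probes, 2.48% had their extremes on that same pair of arrays. From dimmest to brightest the arrays were CNOT6, PARN, non-target, NOC, empty-vector, CNOT6L and CNOT7. The CNOT8 levels rose in this order too, except that PARN and non-target, and NOC and empty-vector, changed places. The summed level of the squamous markers also differed by row, at 5.13 to 5.47 in row 1 and 4.62 to 4.93 in row 2. That sum is mostly SOX2, which ran from 4.60 to 5.46 over the arrays, with KRT6A next at -0.77 or below. The summed levels of the alveolar, epithelial, fibroblast, leukocyte and endothelial markers overlapped between rows. The part of row, brightness and marker level in the CNOT8 values was not tested. The deadenylase CNOT6 had the same pattern, with 0.63, 0.76 and 0.73 in row 2 and 0.22 to 0.44 in row 1. The 0.22 was on its own shRNA array, and the rest of row 1 ran from 0.33 to 0.44.

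**Figure D3:**
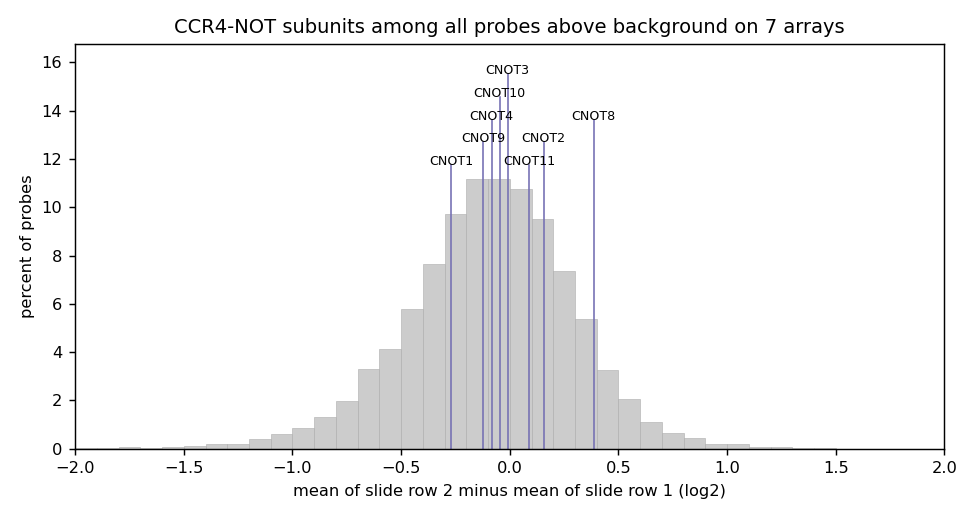
Percent of the 33742 probes above background on all arrays (vertical axis) by the difference between the mean of the 3 arrays of slide row 2 and the mean of the 4 arrays of row 1 (horizontal axis, log2, bins of 0.1), with the 8 subunits marked by lines; 0.122% of probes fall outside the plotted range. CNOT8, at 0.39, is farthest to the right, CNOT1, at -0.27, farthest to the left, and the others lie between -0.12 and 0.16.

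The genes whose profile over the 7 arrays was closest to that of CNOT8, by root-mean-square difference after each profile was centred on its mean, were ERCC3 (0.040), a helicase of the transcription factor TFIIH, ZDHHC3 (0.042), a palmitoyltransferase, and RPN1 (0.045), a subunit of the oligosaccharyltransferase. The median over the 21194 named probes compared was 0.301. Among the other members CNOT2 was the nearest, at 0.146, with 5.93% of probes nearer, and CNOT1 the farthest, at 0.333.

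CNOT1, the scaffold, had levels of 0.75 in the empty-vector, 0.54 in the non-target, 0.79 in the PARN shRNA, 0.44 in the CNOT6 shRNA, 0.28 in the CNOT6L shRNA, 0.53 in the CNOT7 shRNA and 0.28 in the NOC shRNA sample. The lowest values came with the CNOT6L and NOC shRNAs, each 0.48 below the empty-vector and 0.26 below the non-target array, or 77.4% of the control mean. Both were outside the control range. Upon CNOT7 silencing, in the same slide row, CNOT1 was 0.01 below the non-target and 0.23 below the empty-vector array. The call with the CNOT6L shRNA held in 3 and that with the NOC shRNA in 4 of 6 other ways of scaling or correcting the arrays.

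CNOT2 and CNOT3 form the module at the carboxy-terminal end of CNOT1 that contacts many RNA-binding proteins. CNOT3 levels were 2.85 in the empty-vector, 2.997 in the non-target, 2.65 in the PARN shRNA, 2.47 in the CNOT6 shRNA, 2.86 in the CNOT6L shRNA, 2.61 in the CNOT7 shRNA and 2.73 in the NOC shRNA sample. As for CNOT1, 4 of 5 shRNA arrays were below both controls, here all but the CNOT6L shRNA array, which lay between them. Upon CNOT6 silencing it was 0.38 below the empty-vector and 0.53 below the non-target array, at 72.8% of their mean. The corresponding values were 0.24 and 0.39 below with the CNOT7 shRNA, and 0.20 and 0.34 below with the PARN shRNA. These 3 differences were outside the control range. The CNOT6 and PARN shRNA arrays share the slide row of the controls, and both calls were made again under all 6 other ways of scaling or correction, whereas that upon CNOT7 silencing was lost without scaling. The control difference for CNOT3 was 0.15, and the value rests on 1 spot per array. The CNOT6 shRNA array, where CNOT3 was lowest, also had the lowest 75th percentile, and the part of brightness was not tested. CNOT2 ran from 2.68 in the non-target to 3.03 in the CNOT6L shRNA sample. It was between the controls on 3 shRNA arrays and above both with the CNOT6L and CNOT7 shRNAs, and no silencing took it outside the control range.

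CNOT4 is a RING-type ubiquitin ligase that binds CNOT1 less stably than the others in human cells. The probe standing for the gene gave 2.81 in the empty-vector and 2.10 in the non-target sample, and, in the order of the slide, 2.75 and 2.78 with the shRNAs of row 1 (PARN, then CNOT6) and 2.56, 2.48 and 2.55 with those of row 2 (CNOT6L, CNOT7, then NOC). All 5 shRNA arrays were between the controls, whose difference of 0.71 exceeded that of 80.4% of probes. A further 2 CNOT4 probes had their lowest value on the non-target array as well, as did 24.6% of all probes, with control differences of 0.80 and 0.62. The last probe disagreed: its empty-vector value was 0.20 below the non-target value and its minimum was on the CNOT7 shRNA array, 0.25 and 0.46 below the controls, outside their range. That probe was dim, at -4.12 to -3.55, and so was A_24_P187351, at -4.19 to -3.57, against 2.10 to 2.81 for the probe standing for the gene. Each of the 4 probes was printed on 1 spot, and the files do not say which CNOT4 transcripts they detect.

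**Figure D4:**
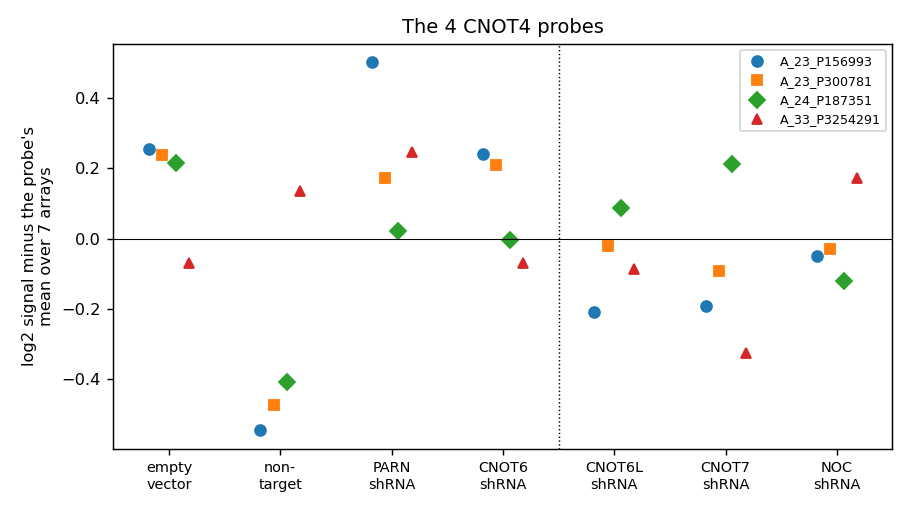
Log2 signal of the 4 CNOT4 probes, each minus its own mean over the 7 arrays (vertical axis), by array (horizontal axis); each point is 1 spot and the dotted line separates slide rows 1 and 2. Of the 4 probes, 3 are lowest on the non-target array and A_33_P3254291 is lowest on the CNOT7 shRNA array.

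CNOT9, which binds CNOT1 next to the deadenylases and receives tryptophan-containing partners such as the TNRC6 proteins, was -2.98 in the empty-vector and -2.74 in the non-target sample and ran from -3.15 to -2.91 upon silencing. All 5 shRNA arrays were below the non-target array, yet 0 were outside the control range. CNOT10 and CNOT11, the module at the amino-terminal end, were each measured on 10 spots and varied the least. CNOT10 stayed between 1.17 and 1.30 on all 7 arrays. Its SD of 0.048 over arrays exceeded the SE of 0.015 to 0.024 that the spots give each mean, and was lower than that of all but 0.474% of probes of like level, many of which were printed on fewer spots. CNOT11 stayed between 0.69 and 0.92. It was 0.13 and 0.23 above the controls with the CNOT6L shRNA and 0.11 and 0.21 above them upon CNOT7 silencing, outside a control difference of 0.10, but both calls were lost with quantile normalization, without scaling and when outlier spots were kept.

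Tests over grouped arrays called no member. When the 5 shRNA arrays were compared with the 2 controls by limma, 0 of 8 members passed an adjusted p of 0.05 and 0 had an unadjusted p under 0.05. Over all 38004 probes tested the same fit called 0%, with 1425 at an unadjusted p under 0.05. The member with the lowest p was CNOT3, whose log2 difference was -0.26 with an SE of 0.13, and the adjusted p of every member was 0.99999. For CNOT8 the difference was 0.17 (SE 0.18), with a range of 0.10 to 0.25 when each array was left out in turn, and for CNOT10 it was -0.02 (SE 0.11). When the 3 arrays with an shRNA against a CCR4-NOT deadenylase were compared with the PARN and NOC shRNA arrays, limma again called 0 of 8 members, 0 of them at an unadjusted p under 0.05, and 0% of all probes, with 331 at an unadjusted p under 0.05. There the CNOT8 difference was 0.12 (SE 0.20), and it ran from 0.003 without the CNOT7 shRNA array to 0.31 without the CNOT6 shRNA array. The CNOT1 difference was -0.12 (SE 0.19), and it ran from -0.37 without the NOC shRNA array to 0.14 without the PARN shRNA array. A p that misses the threshold does not show that levels were equal.

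Of 26 partner genes, which encode the other deadenylases of the complex and proteins that bind it or act beside it, 0 moved 2-fold against both controls upon any silencing. By the finer rule 39 of 130 combinations of partner and silencing were outside the control range, among them CNOT6, CNOT6L and CNOT7 on their own shRNA arrays. Without those it was 36 of 127, or 28.3%, the same as over all probes. Besides the silenced CNOT7 and CNOT6L, the partners farthest from the controls were ZFP36L2, TNRC6C, TNKS1BP1 and TNRC6A. ZFP36L2, which recruits the complex to AU-rich elements, was 1.23 and 0.78 below the controls with the CNOT6L shRNA and 1.14 and 0.69 below them upon CNOT7 silencing, and 0.89 and 0.44 below them, within the control difference in the smaller case, upon NOC silencing. TNRC6C, which links microRNA-bound Argonaute to CCR4-NOT, was 1.03 and 0.72 above them upon NOC silencing, 0.80 and 0.49 above them with the CNOT7 shRNA and 0.75 and 0.44 above with the CNOT6L shRNA. TNRC6A, a protein of the same family, was 0.44 and 1.01 above them upon CNOT7 silencing, and the smaller of these was less than the difference between the controls. TNKS1BP1, a protein found with the complex, was below them outside their range on 4 arrays, by 0.47 and 0.66 upon NOC silencing, 0.38 and 0.56 with the CNOT6 shRNA, 0.31 and 0.50 with the CNOT6L shRNA and 0.29 and 0.48 with the CNOT7 shRNA. TNRC6C and TNKS1BP1 have 2 probes each, and the values given are those of the brighter one. The other probe is given only for the limma comparison between shRNAs, which does not bear on the differences from the controls. There the log2 differences on the brighter and the other probe were -0.10 and -0.19 for TNRC6C. For TNKS1BP1 they were -0.06 (SE 0.18) and -0.72 (SE 0.35). Leaving out the silenced CNOT6, CNOT6L and CNOT7, whose own arrays bear on the rows, row 2 lay wholly above row 1 for 5 of 23 partners, TNRC6C and TNRC6A among them, and wholly below for 4, ZFP36L2 among them, against 9.84% and 16.2% of all probes.

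CNOT7 and CNOT6L were also read on the arrays where they were not targeted. The first CNOT7 probe was 0.22 and 0.13 above the controls upon CNOT6 silencing, 0.20 and 0.11 above with the CNOT6L shRNA and 0.33 and 0.25 above upon NOC silencing, each outside a control difference of 0.09. The second probe gave -0.09 and -0.01, 0.18 and 0.27, and 0.09 and 0.18 in the same order, so the probes disagreed in sign upon CNOT6 silencing. Upon PARN silencing the first probe was 0.02 and 0.10 below the controls and the second 0.23 and 0.14 below them, the latter outside its control difference of 0.09. CNOT6L was 0.14 and 0.07 below the controls upon CNOT7 silencing on its first probe and 0.16 and 0.41 below on its second. With the NOC shRNA these values were 0.17 and 0.10 below and 0.27 and 0.51 below. With the CNOT6 shRNA the first probe was 0.10 and 0.17 above the controls and the second between them.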

How the data were processed

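Total RNA of NCI-H520 cells was hybridised to 7 single-colour Agilent arrays. The authors extracted the images with Agilent Feature Extraction 10.7.3.1, and the deposited scanner files hold an intensity per spot (background-subtracted processed signal, median signal, local background) for 62976 spots. The deposited series table holds log2 values centred on the median of each probe; apart from 1 shift per array its differences matched the scanner files within 0.02 for 99.7% to 99.8% of probes, and its centring leaves no level scale.

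From the processed signal, control spots and outlier spots were dropped, log2 was taken, the 75th percentile over gene spots was subtracted and spots of 1 probe were averaged. The software's own mark decided which signals were above background, and a probe needed it on 50% or more of its spots; a dimmer side that was not was bounded from below by the lowest value above background. Symbols came from a RefSeq gene table (GRCh38.p14), used for names and for the printed upstream regions; CNOT6 was matched by the transcript accession that the labels give for its shRNA. The probe with the highest mean stands for a gene.

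Groups were taken from the sample labels, with 1 array each. limma 3.58.1 in R 4.3.3 (lmFit, eBayes with trend, two-sided, Benjamini-Hochberg) was fitted to probes above background on at least 2 arrays. It was also run on simulated data with independent noise and the same shift on every array of a group. Those data lacked the slide rows and brightness differences of the real arrays, so that run does not vouch for the results here. In the fit to the real arrays the residual spread mixes different shRNAs and both control plasmids. Precision is limited by the number of arrays. The genes named are the members, the silenced genes, the 4 partners with the largest smaller difference from the controls, and the 3 genes most like CNOT8. Members, lists and rules were chosen with earlier results of these data known. Alternatives covered scaling, background correction, filters, thresholds, the slide row as a term and leaving out arrays. Untransfected cells were not analysed here.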

Additional observations from a re-analysis of the deposited data

How the results depend on the processing

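The statement that 0 members moved 2-fold against both controls held for every silencing under quantile normalization, normexp correction (offset 50, on median signals), the series table, outlier spots kept and either control alone. The filters and a 4-fold threshold could not have changed it. A limma fit with 1 shRNA array, taken to have the spread of the controls, has too few arrays to decide it. Without scaling the count became 1 member upon CNOT6 silencing (CNOT3) and 4 partners in place of 0. The number of members outside the control range was 1 for PARN, 1 for CNOT6, 3 for CNOT6L, 3 for CNOT7 and 1 for NOC silencing. Without scaling it became 2, 6, 0, 1 and 0. With normexp it became 2 for CNOT6, 2 for CNOT6L and 0 for NOC. Quantile normalization gave 1 for CNOT6L, 2 for CNOT7 and 2 for NOC (CNOT3 gained). With outlier spots kept it became 2 for CNOT6L, 2 for CNOT7 and 2 for NOC (CNOT10 gained). It became 2 for NOC (CNOT8 gained) with the series table and with the 75th percentile over probes, a setting chosen after seeing the data. That rule needs both controls, so no control could be left out. CNOT8 upon CNOT7 silencing was 0.47 above the control mean, 0.39 to 0.54 with 1 control left out, 0.43 to 0.52 under the other scalings and 0.99 without scaling; its excess over the row mates, 0.18, became 0.41 without scaling and 0.11 to 0.25 with 1 row mate left out. The gap of 0.14 between the slide rows for CNOT8 stayed above 0 in all 6 alternatives, at 0.08 to 0.17. Both limma comparisons called 0 members in each of 16 alternatives, slide row as a term included, with adjusted p from 0.338 and 0.771 upwards. Over all probes, the comparison with controls called 62 without the empty-vector array against 0 otherwise in most fits (1 without the non-target array, 3 without scaling), and that between shRNAs called 4 without the NOC array, 2 without the PARN array and 1 without scaling. CNOT8 has 1 probe, so other CNOT8 probes could not be tried. Probes on 1 spot carry no spot error, and brightness differed 2.90-fold between arrays. No paired analysis was possible because every group has 1 array with the same replicate number. The cause of these shifts was not tested.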
